A study of Homo sapiens with 32 samples.

Results

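TMD8 is an established human diffuse large B-cell lymphoma line, and here it carried an engineered Cas9. The comparison described is between its vehicle cultures, kept in DMSO for 24 h, and those kept in DMSO for 6 h, with 2 libraries at each time and no inhibitor in either group. Members were all genes of the deposited table whose mean log2 value over these 4 libraries was 5 or more, which held for 12009 of 25066 features (47.91%). Of the 13057 other features, 6533 had no read in any of the 4 libraries. The features nearest the limit were GPR19 at 4.9995, just outside, and LOC643856 at 5.0017, just inside. The limit corresponded to a mean of 22.0 reads in the member with the fewest, and the median member had a mean of 585 reads.

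The series followed TMD8 and a second lymphoma line through 4 times in DMSO or in 500 nM of a CSK inhibitor, written CSKi in the labels, in 32 libraries of poly(A)-selected, paired-end RNA-seq. Cells were grown at 500000 per ml in advanced RPMI with 5% serum. The labels name the duplicates biological replicates but do not say that they were separate cultures, so p-values measure the spread between these libraries, which may be technical. No untreated library and no culture at another density enters the comparison, so time in DMSO and time in culture cannot be told apart.

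DMSO is a solvent, and vehicle cultures are the reference that drug-treated cells are read against. In culture, dividing cells use glucose, oxygen and amino acids and secrete cytokines. Well-described transcript programmes respond to such variables: hypoxia-inducible factors drive glycolytic enzymes, ATF4 drives amino acid synthesis and transport, heat shock factor drives chaperones, and JAK-STAT signalling drives SOCS feedback genes. TMD8 belongs to the activated B-cell type of the disease, in which chronic B-cell receptor signalling feeds NF-kB.

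The 4 libraries held 14401850 to 21378599 mapped reads, and the deposited log2 values resolved into whole reads. Over the members, the SD of the log2 difference was 0.171 between the 6 h duplicates and 0.185 between the 24 h duplicates. Between a 6 h and a 24 h library it was 0.379 to 0.395, against 0.199 to 0.213 between vehicle libraries at 3 h and 6 h. The 9 B-cell markers summed to 5682 and 5767 RPM (reads scaled to the mapped total) at 6 h and to 5064 and 5062 at 24 h, and all 9 had reads in each library. Of the 13 T and NK markers in the table, CD3D, CD3G, CD2, KLRD1, NCAM1 and GZMA were at 0 in all 4 libraries and the list summed to 3.62 to 4.40 RPM. The 12 myeloid markers summed to 63.8 to 72.6 and the 11 fibroblast and epithelial markers to 126 to 135 on the same scale. S100A8, S100A9, CD163, ELANE, FCN1, EPCAM and KRT18 were at 0 in all 4. Others had reads: 5 or 6 of the myeloid markers and 7 or 8 of the fibroblast and epithelial ones in each library. COL1A2, 1 of 4 fibroblast and epithelial markers above the limit, rose by 0.75 on the log2 scale (limma adjusted p = 0.00349). It lost its call with all 32 libraries in the fit.

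Vehicle alone was followed by broad change. At 24 h, 2494 members were higher than at 6 h (20.8% of those tested) and 2495 were lower (20.8%), at an adjusted p under 0.05 by limma on the log2 values, which made 41.5% in all. Scaled to total mapped reads, the counts were 2248 higher and 2806 lower, so the even balance depended on the scaling. Both 24 h values lay outside both 6 h values for 72.6% of all members, so groups that do not overlap were common here. The median called difference was small, 0.36 on the log2 scale for genes that rose and -0.30 for those that fell. At least 1.5-fold, 626 members rose (5.21%) and 330 fell (2.75%), and at least 2-fold the counts were 195 and 62, so the larger changes lay mostly on the rising side. For 2006 of the genes that rose and 2012 of those that fell, both 24 h values also lay outside all 6 earlier vehicle values, from 1, 3 and 6 h; over all members the 24 h values were above all 6 for 23.1% and below all 6 for 23.5%, or outside them for 46.6%. The median over all members was -0.01. In bulk RNA, fewer cells of a type and less RNA per cell cannot be told apart.

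Of the 12 largest rises, 5 stood on the glycolysis or hypoxia lists, and of the 12 largest falls 2 were metallothioneins. The deposited symbols FAM46C, C7orf68, KIAA1772 and AK3L1 are now TENT5C, HILPDA, GREB1L and AK4. TENT5C, a poly(A) polymerase of plasma cells, had values of 4.01 and 3.14 at 6 h and 8.16 and 7.70 at 24 h, from 11 and 7 reads against 150 and 158. It was therefore low in both early libraries and raised in both late ones, by 4.36 ± 0.39 (log2 difference ± SE, adjusted p = 1.78e-09, limma). With means of 3.57 at 6 h and 7.93 at 24 h, TENT5C reached the limit of 5 only through its 24 h libraries. CA9, a carbonic anhydrase of hypoxic cells, went from 5.25 and 5.09 to 9.45 and 8.76, a difference of 3.94 ± 0.30 (limma adjusted p = 1.32e-10). IL4I1, a secreted amino acid oxidase of B and myeloid cells, rose from 7.93 and 7.92 to 11.55 and 11.29, which was 11.3-fold. These 3 genes had been level or falling in vehicle up to 6 h: the 1 h values were 3.98 and 3.98 for TENT5C, 5.39 and 4.98 for CA9, and 8.91 and 8.91 for IL4I1.

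The other 9 of the 12 largest rises lay between 2.16 and 3.65 on the log2 scale. They were PPFIA4, PFKFB4, SLC16A3, HILPDA, ALPL, NRN1, PTGIR, ENO2 and RNF183. PFKFB4, which sets the level of a glycolytic activator, moved from 6.91 and 7.08 to 10.79 and 10.34. SLC16A3 exports lactate, and its values went from 6.96 and 6.48 to 10.00 and 9.41. HILPDA, a lipid droplet protein, moved from 9.66 and 9.76 to 12.60 and 12.18, while NRN1, a small membrane-anchored protein first described in neurons, moved from 7.74 and 7.79 to 10.56 and 10.08. In each of the 12 the lower 24 h value was above the higher of all 6 earlier vehicle values. PPFIA4, PTGIR and RNF183 had 6 h means of 4.23, 3.98 and 4.79, so they too reached the limit of 5 only through 24 h. For PTGIR, a prostacyclin receptor, the estimate was 1.72 without the second 6 h library and 2.67 without the first.

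Among the 12 largest falls, TNFRSF18 led. This receptor, also called GITR, had values of 6.70 and 6.58 at 6 h and 3.25 and 4.92 at 24 h, from 71 and 76 reads against 5 and 23, a difference of -2.55 ± 0.31 (limma adjusted p = 2.96e-07). The 24 h libraries differed from each other, and the estimate was -1.72 without the first of them and -3.39 without the second. ACTG2, a smooth muscle actin, fell from 11.01 and 10.95 to 8.81 and 8.77. ZBP1, a sensor of Z-form nucleic acid, fell from 6.19 and 6.22 to 3.93 and 4.57. CCL22, a chemokine that attracts CCR4-bearing T cells, fell from 7.65 and 7.57 to 5.63 and 6.28, and its 1 h values had been 8.88 and 8.73, so it declined at every time sampled. The rest were MT1G, SYTL2, C7orf33, CCT6B, MT1E, GREB1L, BCAS1 and ADAMTS7, at -1.86 to -1.53. For ADAMTS7 it was -1.17 without the first 6 h library and -1.89 without the second. The 24 h means of TNFRSF18, ZBP1, MT1G, CCT6B and BCAS1 were 4.09, 4.25, 4.41, 4.47 and 4.54, under the limit of 5. These genes were members only through their 6 h libraries.

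**Figure D1:**
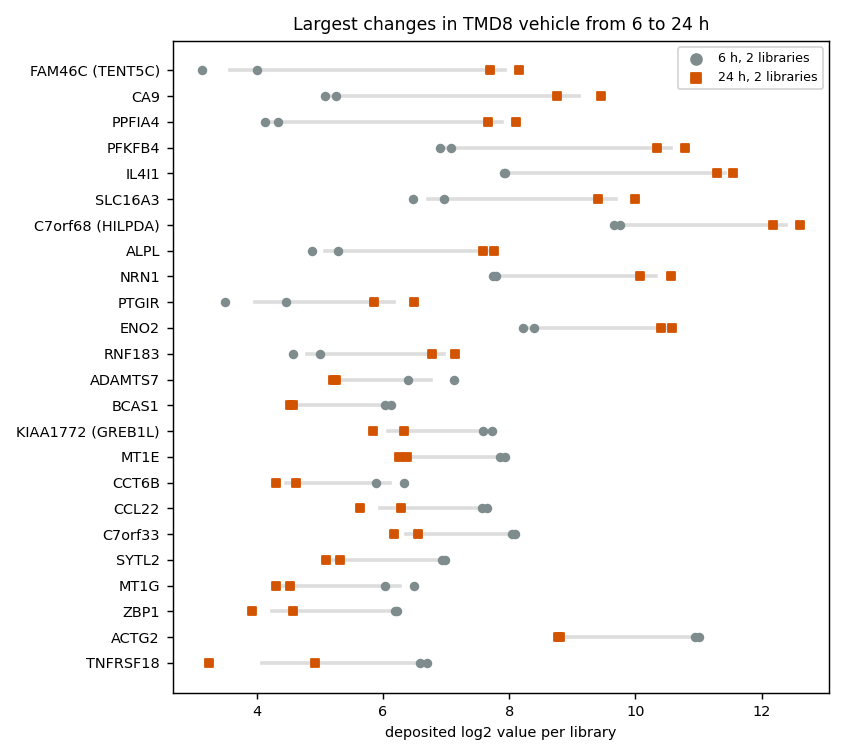
The 12 largest rises and 12 largest falls among genes called, with the deposited log2 value of each library on the horizontal axis, 6 h as grey circles and 24 h as orange squares. Both 24 h values lie on one side of both 6 h values in every row, and the 24 h libraries are farthest apart for TNFRSF18, at 3.25 and 4.92.

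Glycolysis and the hypoxia response formed the clearest rising groups. Of 23 glycolytic enzymes and sugar or lactate carriers tested, 22 rose and 0 fell, 14 of them by at least 1.5-fold, with a median difference of 0.69 against -0.01 over all members. All 23 had both 24 h values above all 6 earlier vehicle values, including the 1 that was not called, SLC2A3, a glucose carrier at 6.55 and 6.76 and then 7.31 and 6.92 (limma adjusted p = 0.0547), and which was called without the second 24 h library. Of 22 hypoxia genes tested, 21 rose and 0 fell, 18 by at least 1.5-fold, with a median of 1.05. The exception was RORA, at 8.60 and 8.46 and then 8.66 and 8.54.

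LDHA, which turns pyruvate into lactate, had values of 14.53 and 14.49 at 6 h and 15.28 and 15.20 at 24 h, a rise of 0.73 ± 0.04 (limma adjusted p = 3.89e-14). HK2 traps glucose in the cell, and its values went from 12.17 and 12.15 to 13.03 and 12.98. ENO2, an enolase isoform, went from 8.39 and 8.22 to 10.58 and 10.41, or 4.55-fold. The duplicates of these 3 genes lay close together at each time and the groups did not overlap. On the oxygen side, P4HA1, a collagen prolyl hydroxylase subunit, rose from 8.87 and 9.07 to 10.66 and 10.44. AK4, a mitochondrial adenylate kinase, rose from 8.21 and 8.25 to 9.76 and 9.70, and BNIP3L, a mitophagy receptor, from 9.71 and 9.78 to 10.93 and 10.77. Between 1 h and 6 h these 6 genes had changed by -0.33 to 0.20 only.

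Hypoxia-inducible factors bind a core of ACGTG, which is shown here because 21 of the 22 hypoxia genes rose. RefSeq promoters of GRCh38.p14, 250 bases before to 50 bases after the start, were matched for 9329 of the 12009 members and searched on both strands. ACGTG is also the inside of CACGTG, the E-box that MYC and other factors use, and a CACGTG counts once on each strand. The core was in 12 of 18 matched hypoxia promoters (66.7%) and 8 of 21 glycolytic ones (38.1%), against 27.6% of all matched members, 27.9% of those that rose and 26.5% of those that fell. Of members that rose at least 2-fold, 26.1% held it, so the share was raised in the hypoxia list and not among large rises in general. A match is a run of letters and not evidence of binding. The promoters of P4HA1 (chr10:73096817-73097116, minus strand) and LDHA (chr11:18394313-18394612, plus strand) follow with the core in capitals.
P4HA1: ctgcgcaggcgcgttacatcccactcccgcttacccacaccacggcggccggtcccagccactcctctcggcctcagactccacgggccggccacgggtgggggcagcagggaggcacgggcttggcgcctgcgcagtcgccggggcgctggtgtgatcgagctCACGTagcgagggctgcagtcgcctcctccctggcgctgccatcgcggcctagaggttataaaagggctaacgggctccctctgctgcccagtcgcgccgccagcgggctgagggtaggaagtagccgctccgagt
LDHA: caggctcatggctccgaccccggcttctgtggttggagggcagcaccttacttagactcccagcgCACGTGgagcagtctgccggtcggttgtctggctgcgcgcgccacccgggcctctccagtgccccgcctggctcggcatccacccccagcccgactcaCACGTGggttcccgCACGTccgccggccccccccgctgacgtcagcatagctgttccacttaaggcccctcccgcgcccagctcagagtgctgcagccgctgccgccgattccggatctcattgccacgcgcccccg

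Chaperone genes came next. Of 20 heat shock genes tested, 18 rose and 0 fell, 12 by at least 1.5-fold, with a median of 0.70. The 2 not called were the factors themselves, HSF1 at 11.34 and 11.28 and then 11.32 and 11.34, and HSF2 at 8.60 and 8.56 and then 8.53 and 8.58. FKBP4, an HSP90 co-chaperone, went from 12.88 and 12.87 to 13.89 and 13.91, a difference of 1.03 ± 0.04 (limma adjusted p = 6.84e-17). HSP90AA1, the inducible HSP90, went from 15.31 and 15.35 to 16.15 and 16.21, and AHSA1, which activates its ATPase, from 12.33 and 12.31 to 13.05 and 13.07. All of these lay far outside the spread of their duplicates.

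The 6 h value was a low point for these chaperones. Between 1 h and 6 h, 14 of the 20 fell and 0 rose. Over all members 1339 rose (11.1%) and 1480 fell (12.3%), or 1659 and 1213 when scaled to total mapped reads, and that comparison shares the 6 h libraries with the main one. Its 2819 calls became 1447 without the second 6 h library, 1552 without the second 1 h library and 1877 without the first 6 h library. HSP90AA1 had started at 15.99 and 15.95 at 1 h and passed through 15.71 and 15.71 at 3 h. HSPA8, the constitutive HSP70, ran from 15.99 and 15.93 at 1 h to 15.45 and 15.44 at 6 h and 16.18 and 16.22 at 24 h. For 16 of the 20, both 24 h values nevertheless exceeded all 6 earlier ones. The heat shock element, searched after these values were seen as GAA, any 2 bases, TTC, any 2 bases and GAA, was in 3 of 18 matched promoters of the list (16.7%) against 0.3% of all matched members. HSPA8 is shown because its promoter (chr11:123062087-123062386, minus strand) holds 2 copies, in capitals.
HSPA8: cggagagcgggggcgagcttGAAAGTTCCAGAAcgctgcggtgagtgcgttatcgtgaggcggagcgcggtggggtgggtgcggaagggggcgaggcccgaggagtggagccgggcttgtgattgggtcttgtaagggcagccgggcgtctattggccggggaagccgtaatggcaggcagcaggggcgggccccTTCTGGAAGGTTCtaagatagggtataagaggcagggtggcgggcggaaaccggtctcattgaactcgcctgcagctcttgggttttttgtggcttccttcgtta

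Genes of the amino acid response rose too. ATF4 is translated when amino acids run short, and of 30 genes on its list 26 rose and 1 fell, with a median of 0.40 and 13 rises of at least 1.5-fold. ATF5, a related factor, had 14.82 and 14.84 at 6 h and 16.41 and 16.23 at 24 h, a 2.81-fold rise (limma adjusted p = 8e-15). DDIT4, an inhibitor of mTORC1 that hypoxia also induces and that stands on both lists, moved from 9.32 and 9.59 to 11.46 and 11.15. SHMT2 and PHGDH belong to serine and one-carbon metabolism. SHMT2 was flat through 6 h, at 12.65 and 12.66, and then 13.56 and 13.39, and PHGDH went from 10.37 and 10.28 to 11.26 and 11.19. The 1 that fell, SLC7A11, imports cystine, and at 9.25 and 9.33 its 24 h values were back beside the 1 h values of 9.40 and 9.29, after 9.61 and 9.68 at 6 h; it lost its call in the fit with all 32 libraries. Among tRNA synthetases, 12 of 20 rose and 1 fell, none by 1.5-fold (7 higher without the second 6 h library), and TARS (now TARS1) was the clearest, at 11.80 and 11.80 and then 12.26 and 12.26. Unfolded protein response genes were mixed, with 9 of 26 higher and 5 lower. The amino acid response element, searched as TGATG, any base and AAT, was in 0 of 25 matched promoters of the ATF4 list. Of all matched members, 0.4% held it.

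**Figure D2:**
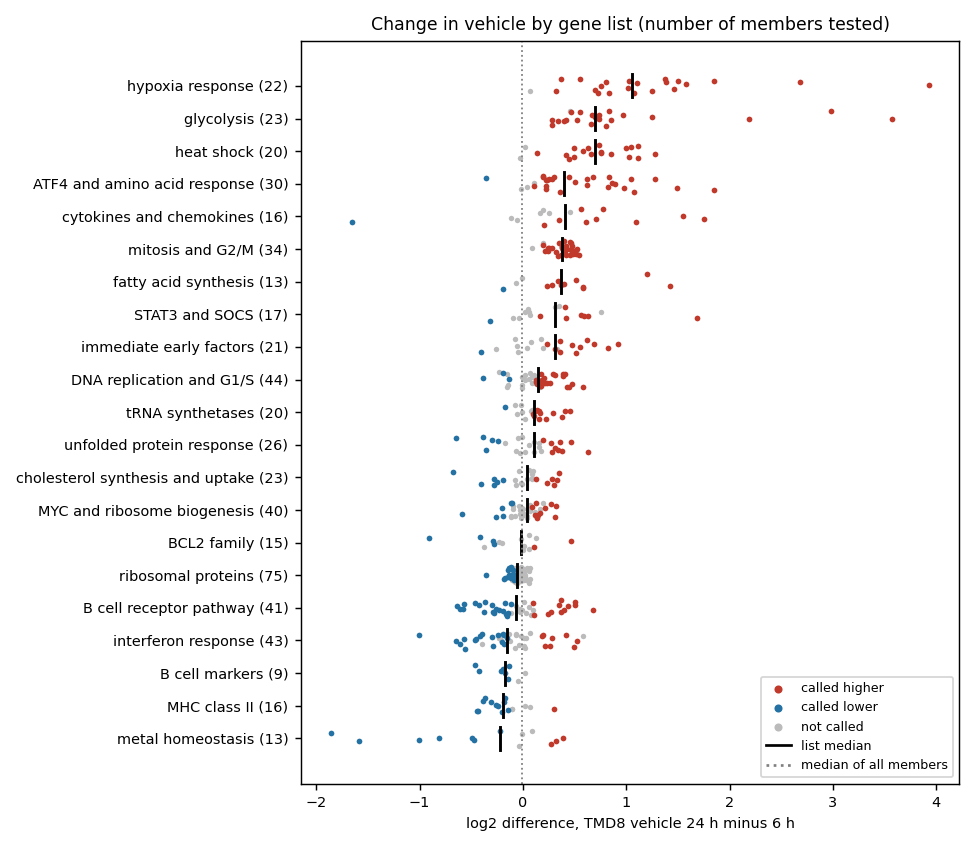
Each point is 1 gene of a list, placed at its log2 difference between vehicle at 24 h and at 6 h, red where called higher, blue where called lower and grey where not called; black bars are list medians and the dotted line is the median of all members. Hypoxia, glycolysis and heat shock lie to the right, at medians of 1.05, 0.69 and 0.70, and metal homeostasis, MHC class II and B-cell markers to the left, at -0.22, -0.19 and -0.17.

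Cell cycle transcripts rose by small and even amounts. Of 34 mitotic genes tested, 31 rose and 0 fell, but none reached 1.5-fold, and the differences spanned 0.08 to 0.54 with a median of 0.38. CDC20, which activates the anaphase-promoting complex, went from 11.82 and 11.76 to 12.26 and 12.30. CENPF, a kinetochore protein, went from 11.96 and 11.96 to 12.46 and 12.49 (0.52 ± 0.05, limma adjusted p = 3.8e-09). UBE2C, the ubiquitin-conjugating enzyme of the same complex, went from 11.22 and 11.23 to 11.73 and 11.69, and TPX2, a spindle assembly factor, from 12.37 and 12.29 to 12.79 and 12.79. In all 4 the duplicates were tight and the times did not overlap. For 33 of the 34, both 24 h values were above every earlier vehicle value.

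Replication genes were less uniform, with 23 of 44 higher, 3 lower and a median of 0.14, and 14 were higher without the second 6 h library and 15 without the first 24 h library. TK1, thymidine kinase, rose from 10.90 and 10.79 to 11.42 and 11.44, and RRM2, the regulated subunit of ribonucleotide reductase, from 12.01 and 11.95 to 12.40 and 12.44. TYMS, thymidylate synthase, had climbed throughout, from 12.20 and 12.26 at 1 h through 12.62 and 12.60 at 6 h to 13.04 and 12.96. E2F1, the factor that drives many of these genes, fell instead, from 11.75 and 11.65 to 11.34 and 11.29, or by 0.38 on the log2 scale (limma adjusted p = 6.7e-07).

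The mitotic list shared promoter letters. The CCAAT box, bound by NF-Y, was in 24 of 29 matched promoters (82.8%) against 37.2% of all matched members, and the CHR element that the DREAM complex reads, TTTGAA, was in 18 of 29 (62.1%) against 9.8%. Its second form, TTTAAA, was in 14 of 29 (48.3%) against 7.3%. The E2F site TTTNGCGC was in 15 of 38 replication promoters (39.5%) against 3.2%. In the same order, the shares were 37.4%, 11.3%, 8.0% and 3.2% among all genes that rose and 37.2%, 8.8%, 7.1% and 2.7% among those that fell, far below those of the lists in each case. CDC20 (chr1:43358731-43359030, plus strand) is shown with TTTGAA on either strand in capitals, and CENPF (chr1:214602945-214603244, plus strand) with its 4 CCAAT boxes on either strand in capitals.
CDC20: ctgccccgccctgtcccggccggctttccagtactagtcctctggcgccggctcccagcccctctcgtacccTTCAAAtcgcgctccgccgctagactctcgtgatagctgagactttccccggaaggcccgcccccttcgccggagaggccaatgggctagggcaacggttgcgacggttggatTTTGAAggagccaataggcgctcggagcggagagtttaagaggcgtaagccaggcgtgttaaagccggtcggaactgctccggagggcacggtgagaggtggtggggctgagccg
CENPF: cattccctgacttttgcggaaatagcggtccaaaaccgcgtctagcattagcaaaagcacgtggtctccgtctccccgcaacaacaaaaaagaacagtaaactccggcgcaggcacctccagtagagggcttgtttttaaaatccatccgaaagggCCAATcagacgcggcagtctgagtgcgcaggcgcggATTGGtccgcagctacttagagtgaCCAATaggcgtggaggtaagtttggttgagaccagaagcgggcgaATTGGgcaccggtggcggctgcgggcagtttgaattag

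Interferon-response genes fell more often than they rose, with 17 of 43 lower, 8 higher and a median of -0.15. The 17 became 10 without the first 6 h library and 8 with all 32 libraries in the fit, and the 8 that rose became 5 without the first 24 h library. IFI27, an interferon-induced mitochondrial protein, went from 9.41 and 9.33 to 8.38 and 8.35, a difference of -1.01 ± 0.10 (limma adjusted p = 2.34e-08), and MX1, an antiviral GTPase, from 12.10 and 11.86 to 11.51 and 11.33. BST2, which tethers virus particles, moved the other way, from 10.65 and 10.58 to 11.17 and 11.11, without regaining its 1 h values of 11.47 and 11.42. With all 32 libraries in the fit, MX1 lost its call. The interferon element, searched as GAAA, any 2 bases and GAAA, was in 21 of 34 matched promoters of the list (61.8%) against 3.0% of all matched members. IFI27 (chr14:94110486-94110785, plus strand) and BST2 (chr19:17405581-17405880, minus strand) are shown because they moved in opposite directions and each holds 2 copies, in capitals, which in BST2 overlap.
IFI27: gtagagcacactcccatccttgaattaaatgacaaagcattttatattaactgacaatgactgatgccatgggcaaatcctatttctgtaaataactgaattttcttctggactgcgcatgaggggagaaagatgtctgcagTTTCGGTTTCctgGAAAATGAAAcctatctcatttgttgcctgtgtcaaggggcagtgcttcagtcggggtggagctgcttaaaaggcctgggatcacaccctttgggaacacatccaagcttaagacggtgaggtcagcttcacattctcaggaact
BST2: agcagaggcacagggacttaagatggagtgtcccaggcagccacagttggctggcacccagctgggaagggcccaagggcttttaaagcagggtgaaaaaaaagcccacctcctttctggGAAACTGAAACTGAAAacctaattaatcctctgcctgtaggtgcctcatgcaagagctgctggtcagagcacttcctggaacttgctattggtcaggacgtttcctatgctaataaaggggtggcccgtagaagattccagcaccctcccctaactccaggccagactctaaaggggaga

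Most transcripts of MHC class II antigen presentation fell by small amounts. Of 16 genes tested, 11 fell, none by 1.5-fold, and 1 rose, with a median of -0.19. CD74, the invariant chain, declined at each time, from 16.83 and 16.88 at 1 h to 16.64 and 16.69 at 6 h and 16.29 and 16.26 at 24 h. HLA-DRB1 followed, from 11.45 and 11.49 to 11.10 and 11.11, and its reads may be shared with other DRB genes, which makes its level uncertain. RFX5, a subunit of the complex that binds class II promoters, went from 12.12 and 12.13 to 11.86 and 11.88. The gene that rose was CIITA, the class II transactivator, from 11.17 and 11.09 to 11.44 and 11.43 (limma adjusted p = 0.00142), which lay within the range of its 1 h values of 11.33 and 11.46 and lost its call in the fit with all 32 libraries.

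Metal-handling genes included some of the larger falls, with 7 of 13 lower and 3 higher. Metallothioneins bind zinc and copper, and they are near-identical paralogs, so reads may have been split between them. MT2A went from 10.27 and 10.28 to 9.50 and 9.43, and MT1F from 8.83 and 8.82 to 7.69 and 7.95. MT1E went from 7.86 and 7.94 to 6.25 and 6.38, and MT1G, the lowest of them in reads with 62 and 52 and then 12 and 15, fell by 1.86 on the log2 scale. All 4 were flat through 6 h, with differences of -0.11 to 0.09 between 1 h and 6 h.

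**Figure D3:**
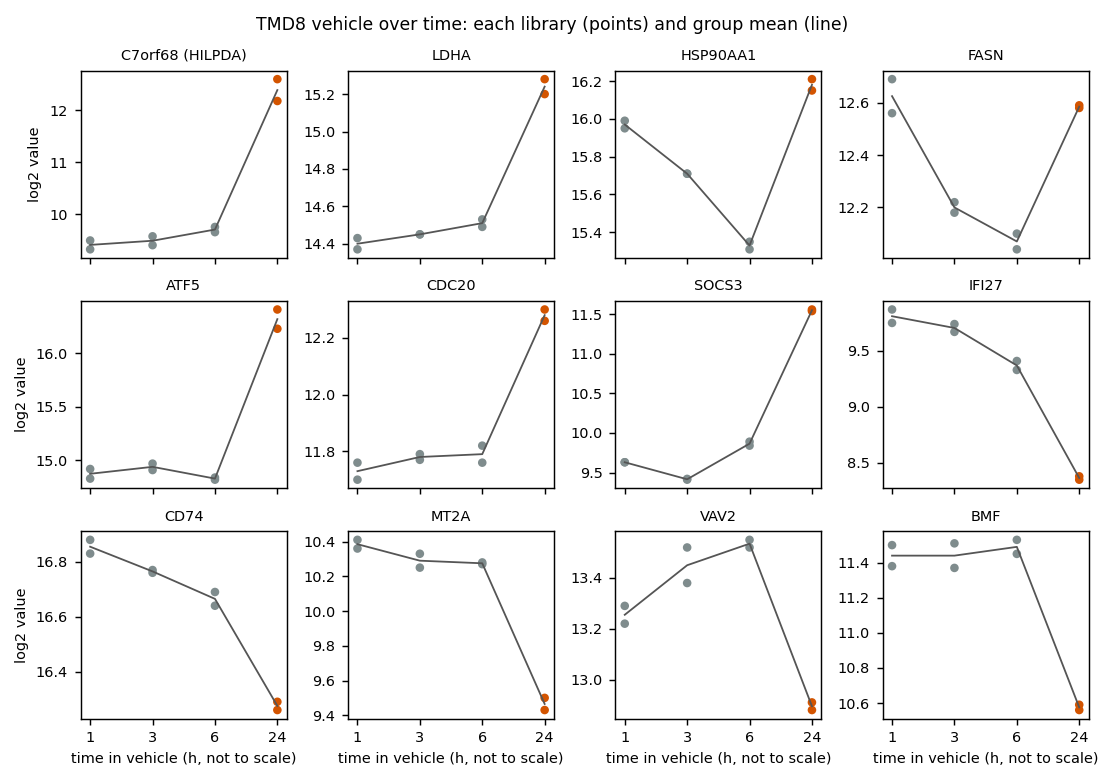
Deposited log2 values of 12 genes in TMD8 vehicle at 1, 3, 6 and 24 h, with 1 point per library (24 h in orange) and a line through the group means; each panel has its own vertical range. HILPDA, LDHA, ATF5 and SOCS3 rise after 6 h, HSP90AA1 and FASN return from a low at 6 h, and IFI27, MT2A, VAV2 and BMF are lower at 24 h than at 6 h.

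Some cytokine and STAT3 genes rose. Of 16 cytokines and chemokines above the limit, 9 rose and 1, CCL22, fell. IL10, which signals through STAT3 and which this lymphoma type secretes, went from 8.44 and 8.43 to 9.92 and 10.05, or 2.93-fold. CXCL13, the chemokine of B-cell follicles, went from 5.41 and 5.69 to 7.32 and 7.28, and TGFB1 from 10.99 and 10.91 to 11.71 and 11.74. On the receiving side, 7 of 17 STAT3 and SOCS genes rose, 1 fell and the others were not called, and 4 were higher without the first 24 h library. SOCS3, the feedback inhibitor, went from 9.89 and 9.84 to 11.54 and 11.56, a difference of 1.69 ± 0.07 (limma adjusted p = 1.57e-15). STAT3 itself went from 13.94 and 13.87 to 14.30 and 14.32, and JAK3, a kinase of the common gamma chain receptors, from 10.08 and 10.03 to 10.68 and 10.62.

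NF-kB targets split, with 12 of 36 higher, 10 lower and a median of -0.01, or 6 and 5 with all 32 libraries in the fit. BATF, a factor of activated lymphocytes, rose from 11.59 and 11.58 to 12.21 and 12.29. NFKBIZ, a nuclear NF-kB cofactor, fell from 13.66 and 13.64 to 13.02 and 13.00, and PLEK, a protein kinase C substrate, from 14.75 and 14.71 to 14.40 and 14.38. Of 21 immediate early factors 11 rose and 1 fell. Between 1 h and 6 h, 12 of the 21 had fallen and 0 had risen. For 7 of the 21, both 24 h values were above all 6 earlier vehicle values. JUN had been level, with 1 h values of 9.77 and 9.70, and moved from 9.77 and 9.69 to 10.55 and 10.55. ZFP36, which destabilises cytokine mRNAs, moved from 11.41 and 11.35 to 11.97 and 11.90. The 1 that fell from 6 to 24 h was BTG2, an antiproliferative gene, from 13.97 and 14.02 to 13.61 and 13.56. Without the second 6 h library 7 immediate early factors were higher. ERK feedback genes rose in 7 of 10 and fell in 0, and the 7 became 3 without the second 6 h library, 4 without the second 24 h library and 3 with all 32 libraries in the fit.

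B-cell receptor genes moved in both directions. Of 41 tested, 12 rose and 19 fell, with a median of -0.07, and 5 were higher with all 32 libraries in the fit. Among those that fell, VAV2, a guanine nucleotide exchange factor, went from 13.52 and 13.55 to 12.91 and 12.88, and SIGLEC10, an inhibitory lectin, from 14.25 and 14.20 to 13.64 and 13.60. CD72, a coreceptor that recruits the phosphatase SHP-1, was the largest rise, from 11.82 and 11.88 to 12.54 and 12.51. Of the 9 B-cell markers, 7 fell and 0 rose, among them CD79B, from 14.18 and 14.21 to 13.78 and 13.77, and CD79A, from 14.06 and 14.10 to 13.90 and 13.88. BLK and CD37 fell by 0.46 and 0.21 on the log2 scale. CD79B lost its call in the fit with all 32 libraries. CSK, the kinase that restrains the SRC family and the target of the inhibitor used elsewhere in the series, was level at 14.22 and 14.19 and then 14.20 and 14.19 (difference -0.01 ± 0.04, limma adjusted p = 0.848). LYN, its main SRC-family partner in B cells, was at 14.31 and 14.28 and then 14.41 and 14.38. It was called higher (limma adjusted p = 0.0284), but not when any single library was left out. The call was also lost under quantile normalization, equal medians or scaling to total mapped reads. Without a variance trend, without the filter on low values, or with all 32 libraries in the fit, it was lost too.

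Apoptosis regulators of the BCL2 family showed 4 lower and 2 higher of 15, with 1 higher when any single library was left out. These counts were near the shares of all members, of which 20.8% fell and 20.8% rose. BMF, a death-promoting BH3-only gene, fell from 11.53 and 11.45 to 10.56 and 10.59, a difference of -0.91 ± 0.06 (limma adjusted p = 2.05e-11). BCL2L11, which encodes BIM, fell from 14.46 and 14.46 to 14.05 and 14.03. BCL2, which opposes them, fell from 12.36 and 12.41 to 12.11 and 12.10, and BID rose from 11.24 and 11.22 to 11.68 and 11.70. The fall of BCL2 brought it back beside its 1 h values of 12.10 and 12.05. Members that promote cell death and a member that opposes it were thus among the 4 that fell from 6 to 24 h.

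Lipid synthesis genes divided between 2 branches from 6 to 24 h. Fatty acid genes rose in 10 of 13 and fell in 1, with a median of 0.37, after 9 of the 13 had fallen and 1 had risen between 1 h and 6 h. FASN, fatty acid synthase, was at 12.56 and 12.69 at 1 h, 12.10 and 12.04 at 6 h and 12.59 and 12.58 at 24 h. SCD, the stearoyl desaturase, ran from 13.04 and 12.98 to 12.50 and 12.47 and back to 13.16 and 12.96. SREBF1, their transcription factor, overshot its 1 h values of 7.75 and 8.06, going from 7.21 and 6.98 at 6 h to 8.53 and 8.51 at 24 h. Cholesterol genes did not move as a group from 6 to 24 h, with 6 of 23 higher and 6 lower. Between 1 h and 6 h, 14 of the 23 had fallen and 0 had risen. LSS, the synthase that closes the sterol ring, fell from 13.44 and 13.44 to 12.82 and 12.70. The sterol element, searched as TCAC, any base and CCAC, was in 1 of 18 matched promoters of the cholesterol list (5.6%). Of all matched members, 1.1% held it.

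The remaining large lists had few calls or calls in both directions, where 20.8% of all members rose and 20.8% fell. Of 75 ribosomal protein genes 0 rose and 18 fell, with a median of -0.06 and no member reaching 1.5-fold, and the number that fell ran from 3 to 47 across the alternative fits. Nuclear genes of oxidative phosphorylation had 8 of 43 higher and 3 lower, proteasome genes 7 of 30 higher and 5 lower, and MYC and ribosome biogenesis genes 10 of 40 higher and 6 lower. Among lysosome genes 8 of 37 rose and 11 fell. Histone genes, whose copies share reads, had 6 of 28 higher and 6 lower, p53 targets 5 of 22 and 4, and clock genes 6 of 14 and 3. These counts were not stable: over the alternative fits those higher went as low as 4 for oxidative phosphorylation, 3 for the proteasome, 6 for MYC, 4 for the lysosome, 2 for histones, 2 for p53 targets and 3 for the clock, and those lower as low as 1, 1, 3, 7, 0, 3 and 1. TXNIP, a glucose-responsive inhibitor of thioredoxin, went from 11.85 and 11.84 to 11.55 and 11.36, and its estimate was -0.49 to -0.30 with single libraries left out.

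The same interval could be read in the CSKi arm of TMD8, which shares no library with the vehicle arm. From 6 h to 24 h in 500 nM CSKi, 2819 of the 12009 members rose (23.5%) and 3054 fell (25.4%), or 2294 and 4029 when scaled to total mapped reads. Genes that rose in both arms numbered 1312, which was 52.6% of those that rose in vehicle and 46.5% of those that rose in CSKi. Genes that fell in both numbered 1187, or 47.6% and 38.9%. Another 322 rose in vehicle and fell in CSKi, and 248 did the reverse. Across the 12009 genes, which are not independent replicates, the changes in the arms had a Pearson r of 0.581. The test of the difference between arms called 1698 members with a higher change in vehicle (14.1%) and 1846 with a lower one (15.4%), or 2115 and 1538 when scaled to total mapped reads.

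Hypoxia and glycolysis rose in both arms. In CSKi 21 of the 22 hypoxia genes rose, with a median of 1.49 against 1.05 in vehicle, and 12 had a lower change in vehicle by the test of the difference and 0 a higher one. HK2 rose by 0.85 in vehicle and by 1.47 in CSKi on the log2 scale (difference -0.62 ± 0.06, limma adjusted p = 3.58e-08). LDHA rose by 0.73 and 0.60, and the difference of 0.13 was not called (limma adjusted p = 0.0612). A larger change did not always mean a higher end. HK2 in CSKi was at 11.62 and 11.61 at 6 h, below vehicle at 12.17 and 12.15. At 24 h it was at 13.14 and 13.03, beside 13.03 and 12.98 in vehicle. P4HA1 did end higher in CSKi, at 11.43 and 11.28 against 10.66 and 10.44 in vehicle. Heat shock genes rose in 18 of 20 in vehicle and in 13 in CSKi, and 13 had a higher change in vehicle.

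Cell cycle genes separated the arms. In CSKi, 2 of the 34 mitotic genes rose and 13 fell, and none of the 44 replication genes rose and 38 fell. The change was higher in vehicle for 32 of 34 and 41 of 44 by the test of the difference. List counts for CSKi and for the difference between arms were not refitted under the alternatives. The SD between the 24 h CSKi duplicates was 0.230, against 0.185 between the 24 h vehicle duplicates. RRM2 moved by 0.45 in vehicle and by -0.25 in CSKi on the log2 scale (difference 0.69 ± 0.06, limma adjusted p = 8.24e-09). B-cell receptor genes showed the opposite balance, with 26 of 41 higher in CSKi and 28 having a lower change in vehicle. CD79B changed by -0.42 in vehicle and 0.18 in CSKi. CXCL13 had the widest gap among the genes named, at 1.75 in vehicle and -1.38 in CSKi (difference 3.13 ± 0.34, limma adjusted p = 1.11e-07).

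**Figure D4:**
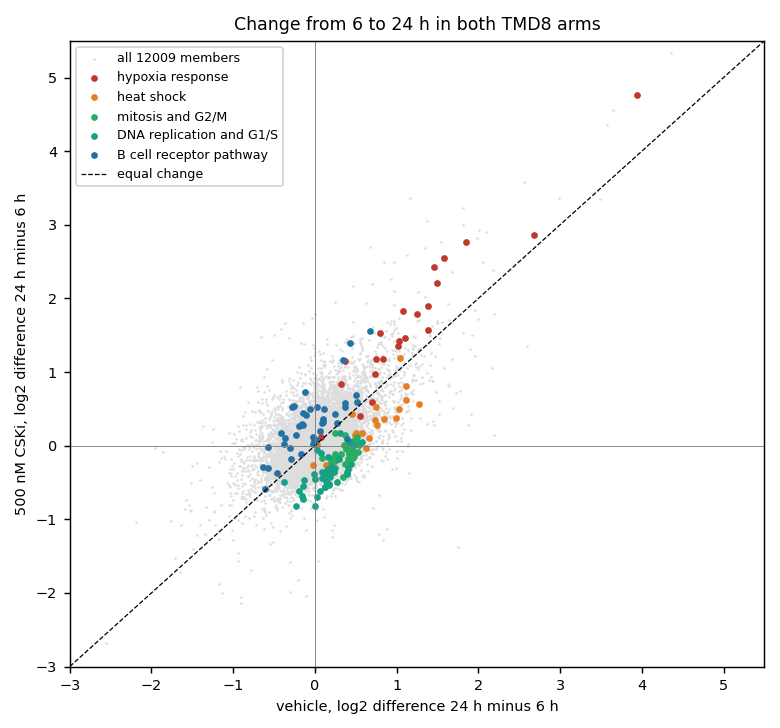
Log2 difference from 6 to 24 h in TMD8 vehicle (horizontal) against the same in 500 nM CSKi (vertical) for all 12009 members in grey, with 5 lists in colour and a dashed line of equal change. Hypoxia genes lie in the upper right, mostly above the line, and mitotic and replication genes lie below it.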

How the data were processed

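RNA from TMD8 and a second line was extracted with RNeasy columns and made into TruSeq stranded mRNA libraries, sequenced in pairs of 75 cycles, per the labels' protocols. The submitters' processing notes list HTSeq and the hg19 build. The version, aligner, annotation and strand setting were not stated in them or in the labels. The authors deposited 1 table of log2 values, recorded as a score because its first row holds total mapped reads and no gene. Values are log2 of read counts times 1 factor per library, with 0 for no reads. The basis of that factor was unstated in the labels. Dividing out each library's step gave whole reads (within 0.1) for 99.6 to 100.0% of values up to 300 reads.

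The total row was dropped and features with a mean of 5 or more over the 4 libraries were kept. All 16 TMD8 libraries were fitted together in 8 groups of 2 (8 residual degrees of freedom) with limma 3.58.1 in R 4.3.3, with a mean-variance trend, 2-sided tests and Benjamini-Hochberg adjustment over all 12009 features. Calls are at an adjusted p under 0.05. A log2 difference is on the scale of the deposited values, with no pseudocount. Tables and figures used Python 3.11.15, pandas 2.3.3 and matplotlib 3.10.9. On simulated data with 12009 genes, this comparison recovered 90% of 100 genes changed by 1 on the log2 scale and 69% of 100 changed by 0.5, with 6 false calls. The simulation gave every gene the same dispersion, and only those genes differed between groups. Its false calls are therefore not an estimate for the calls in the real libraries.

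The 43 gene lists were chosen, like the comparison itself, with earlier results of these data known, so no list is independent evidence. The text names the 12 largest changes each way, up to 4 members with the smallest p in each list, CSK and LYN, and 6 list members that were exceptions to a count, chosen after their values were seen (SLC2A3, RORA, HSF1, HSF2, SLC7A11 and CIITA). Some genes the rule gives are not reported here. Lists are described by counts and medians, with no test over a list. Each count is to be read beside the 20.8% of all members that rose and the 20.8% that fell. Current symbols and promoters came from RefSeq GRCh38.p14, matched by gene identifier or symbol (11528 members had a current symbol), and no deposited coordinate was used. Alternatives covered filters, scaling, variance models, the libraries fitted, a replicate block, thresholds and each library left out. The second line was not compared here, and the 1 h and 3 h inhibitor libraries served only in the fit.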

Additional observations from a re-analysis of the deposited data

Results flagged for a closer look

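The change from 6 to 24 h in vehicle differed from that in CSKi for 65 of the 104 genes named here for their level over time, by the limma test of the difference (adjusted p of 0.041 or less for each). Values below are the vehicle change minus the CSKi change on the log2 scale, which does not say which arm ended higher. The change was higher in vehicle for 25 genes and lower for 40, and 12 of the 65 were called in opposite directions in the arms. By the same test, 14.1% of all members had a higher change in vehicle and 15.4% a lower one. Most of the 104 were named for their change in vehicle, which is part of the tested difference. Their share is therefore not independent of how they were chosen.

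Higher in vehicle were the cell cycle genes CDC20 (0.47), CENPF (0.41), UBE2C (0.56), TPX2 (0.48), TK1 (0.53), RRM2 (0.69) and TYMS (0.78). So were the chaperones FKBP4 (0.53), AHSA1 (0.39), HSP90AA1 (0.49) and HSPA8 (0.48), and the amino acid genes PHGDH (0.44), TARS (0.46) and AARS, now AARS1 (0.22). Signalling and cytokine genes on this side were STAT3 (0.86), SOCS3 (1.18), JAK3 (0.28), BATF (0.83), JUN (0.78) and CXCL13 (3.13), joined by BID (0.39), RGS13 (0.41), the tubulins TUBB (0.61) and TUBA1B (0.69), and ALPL, an alkaline phosphatase (1.23).

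Lower in vehicle were the hypoxia and glycolysis genes PFKFB4 (-0.78), HK2 (-0.62), SLC2A3 (-1.22), P4HA1 (-0.96), AK3L1 (-0.71), BNIP3L (-0.35) and DDIT4 (-0.91), with ATF5 (-0.92), SLC7A11 (-0.34) and NRN1 (-1.03). Among B-cell and antigen presentation genes the values were CD79A (-0.46), CD79B (-0.60), CD37 (-0.67), CD72 (-0.89), VAV2 (-0.34), LYN (-0.22), CD74 (-0.40), RFX5 (-0.22), CIITA (-1.01), SPIB (-0.66), ETS1 (-0.49), PRDM1 (-0.54) and CXCR4 (-0.34). Metallothioneins and other genes that fell steeply in vehicle followed, with MT1G (-1.77), MT1E (-0.72), MT1F (-0.70), ACTG2 (-1.14), ZBP1 (-1.93), SYTL2 (-0.74) and KIAA1772 (-0.84). The others were BMF (-0.80), BCL2L11 (-0.32), BCL2 (-0.60), LSS (-0.75), SCD (-0.53), TXNIP (-0.77), BTG2 (-0.75), ZFP36 (-0.29), NFKBIZ (-0.25) and PLEK (-0.59).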

How the results depend on the processing

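Of the counts of genes called under the alternatives, 199 stayed within 1.5 times their reported value and 11 did not. Requiring 1.5-fold left 956 calls from 6 to 24 h, 626 higher and 330 lower, in place of 4989, which follows from the stricter threshold. The other counts that moved belonged to vehicle at 6 h against 1 h with single libraries left out, where calls ran from 1447 to 1984, those higher from 646 to 912 and those lower from 801 to 1072; the lowest came without the second 6 h library, and the cause was not tested. With single libraries left out, calls from 6 to 24 h ran from 3713 to 3853. The limma voom fit on recovered reads called 5372, the fit on the 4 libraries alone 5548, and the fit on all 32 libraries 3753. Over the lists, 1351 counts of members called stayed within 1.5 times their reported value and 123 did not, 28 of them in the fit on all 32 libraries and 15 without the second 6 h library; 679 list medians moved by no more than 1 SD over pairs of libraries and 58 by more. The refits of lists and of named genes covered vehicle from 6 to 24 h only. The naming rule gave 162 genes, of which 161 were called. Of 2878 refits of these 161, 0 changed direction and 58 lost their call, 23 of them in the fit on all 32 libraries. The other gene, CSK, was called in none of its 18 refits and changed sign in 1 (0.008 without the first 6 h library). Same-numbered libraries showed no large shared deviation. Their deviations correlated at 0.08 between 6 h and 24 h vehicle and at -0.15 to 0.17 over the 28 pairs of groups. That cannot show whether cultures were paired, which the labels do not state. The replicate block gave 2495 higher and 2508 lower and changed no call among the 162. Depth limited small changes of weak genes: the smallest called log2 difference was 0.40 for members with mean values of 5 to 7 and 0.08 for those at 12 or more.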

Other observations

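Genes of B-cell identity moved in both directions from 6 to 24 h in vehicle. Of 25 germinal centre and identity genes tested, 9 rose and 8 fell. RGS13, a regulator of chemokine receptor signalling in germinal centre cells, went from 9.20 and 9.25 to 10.21 and 10.30, and SPIB, an ETS factor, from 15.03 and 15.04 to 15.44 and 15.44. ETS1, another ETS factor, fell from 13.04 and 13.04 to 12.61 and 12.61, and MEF2C from 11.07 and 11.12 to 10.55 and 10.44. On the plasmablast list, 9 of 27 rose (4 with all 32 libraries in the fit) and 8 fell, and PRDM1, which drives plasma cell fate, went from 12.09 and 12.12 to 11.63 and 11.62. Among activation and migration genes 12 of 31 rose and 7 fell, after 3 had risen and 16 had fallen between 1 h and 6 h. CXCR4, the homing receptor, went from 9.92 and 9.96 to 10.87 and 10.57, beside its 1 h values of 10.56 and 10.76. CD86, a T-cell costimulator, went from 11.10 and 11.17 to 10.64 and 10.69. With all 32 libraries in the fit CD86 lost its call, and 3 of the list were lower. Oxidative stress genes rose in 7 of 19 and fell in 2, with HMOX1, heme oxygenase, at 9.60 and 9.64 and then 10.48 and 10.39. That returned HMOX1 to its 1 h values of 10.37 and 10.50, and with all 32 libraries in the fit it lost its call and 4 of the list were higher. Quiescence and FOXO genes rose in 11 of 28 and fell in 5, actin and adhesion genes in 11 of 32 and 8, and MHC class I genes in 3 of 12 and 0, or 1 higher without the first 6 h library. Of 5 sterol efflux genes 2 rose (1 when any single library was left out) and 0 fell. Of 3 glucose-sensing genes 1 rose and 1 fell, and the rise was lost when either 24 h library or the second 6 h library was left out. The 28 mitochondrially encoded genes listed had no row in the table.

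Some families were picked after their values were seen. Of 18 tubulin genes tested, 12 rose and 1 fell, with a median of 0.57. TUBB went from 15.44 and 15.41 to 16.03 and 16.05, TUBA1B from 14.26 and 14.09 to 14.98 and 14.87, and TUBB2B from 9.43 and 9.51 to 10.82 and 10.74, and reads may be shared among tubulin paralogs. The cold-inducible RNA-binding genes RBM3 and CIRBP both fell. RBM3 had climbed from 11.98 and 11.95 at 1 h to 12.45 and 12.48 at 6 h and was at 11.50 and 11.41 at 24 h, a difference of -1.01 ± 0.05 (limma adjusted p = 2.09e-14), and CIRBP went from 14.42 and 14.43 to 14.02 and 14.02. Of 327 genes with a ZNF symbol, 18 rose and 83 fell, with a median of -0.09 against -0.01 over all members. Among all members 20.8% rose and 20.8% fell. By RefSeq class, 53 of 217 long noncoding RNAs fell (24.4%) and 17 rose (7.8%), with a median of -0.15. Of 11024 protein-coding genes, 2333 fell (21.2%) and 2418 rose (21.9%). The 2 classes differed in level, with median log2 values of 7.16 and 9.90, and calls were fewer at low levels. Of members at 5 to 7, 24.4% were called, against 43.2% at 9 to 11.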
